A study of Ovis aries with 2 samples.

Results

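The suprabasal epidermal keratins described here are KRT1, KRT10, KRT2, KRT77 and KRT79, 5 of the 18161 genes of the deposited table. They were chosen by symbol and not by a threshold on their values, and were followed through the 14037 cells of both libraries. A sixth row with a similar name, KRT2.11, is a hair keratin and was not counted among them. The cells came from body-side skin of Hu sheep lambs at day 3 after birth. Skins of 3 straight wool lambs were pooled into 1 library (6452 cells), and skins of 3 curly wool lambs, which one label calls wavy, were pooled into the other (7585 cells). All lambs were of the same breed and under the same management, no treatment was applied, and dissociated hair follicles were mixed with dissociated whole skin before loading on the 10× Genomics platform. With 1 library per wool type, lamb-to-lamb spread is unknown, so no test, p-value or SD between straight and curly wool is given. Wool type also cannot be told apart from any difference in dissociation, mixing or loading of the 2 libraries.

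Keratins form filaments as pairs of a type I and a type II chain. Basal cells of the epidermis pair KRT5 with KRT14, and a cell that leaves the basal layer and stops dividing replaces this pair by KRT1 (type II) with KRT10 (type I). KRT2 is a type II keratin of the upper spinous and granular layers, KRT77 a type II keratin related to KRT1, and KRT79 a type II keratin known from mouse skin in the hair canal and the duct of the sebaceous gland. Above these layers the cells fill with loricrin (LOR), filaggrin (FLG) and other proteins of the cornified envelope and die as the horny layer.

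A UMI marks 1 captured RNA molecule. Sequencing gave 57956122 UMIs for straight and 77634565 for curly skin (median depth of a cell 7373.5 and 7495), and 70 cell barcodes occurred in both libraries. Levels are given as CPM, the summed UMIs of a gene per 1000000 UMIs of the same cells. They are not divided by transcript length, so that levels are compared between cells rather than between genes. Brackets after a value hold its exact 95% interval, which covers counting error only and not the spread between lambs. Cells fell into 21 clusters, numbered 0 to 20, which were made with KRT1, KRT2 and KRT79 left out of the variable genes. KRT10 and KRT77 stayed among the genes available for clustering. Classes were named from marker genes and carry the ending "like". Clusters 5 and 6 were suprabasal epidermis-like, with 11 and 12 of the 12 measured suprabasal markers detected. Cluster 2 was basal epidermis-like, with 7 of 7 basal markers detected, but these were not all highest there. In straight cells KRT14 stood at 10007 CPM in cluster 2 against 17401 in cluster 6, and COL17A1 at 349 against 474. KRT5 stood at 10447 in straight cells of cluster 2, 11460 in cluster 6 and 12736 in cluster 5. KRT15, ITGB4, DST and POSTN were higher in cluster 2 of the straight library. In curly cells KRT14, COL17A1 and KRT5 were also higher in cluster 2. Clusters 5 and 6 were not alike, and 1 suprabasal marker, CST6, is also in the list of duct and sebaceous genes used below. KRT17, of the same list, stood at 25201 CPM in straight and 14887 in curly cells of cluster 5, against 2059 and 1805 in cluster 6. The marker FLG stood at 4.20 and 19.9 in cluster 5, against 206 and 863 in cluster 6.

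In whole libraries KRT10 and KRT1 were abundant and the other members were low. KRT1 stood at 1754 CPM in the straight library [1744 to 1765] and 1739 in the curly library [1730 to 1749], where it ranked 108 and 101 among all genes. KRT10, its type I partner, stood at 3632 [3616 to 3647] and 4004 [3990 to 4018]. KRT2 stood at 31.6 [30.2 to 33.1] and 72.0 [70.1 to 73.9]. The 2 libraries were thus nearly level in KRT1, and KRT2 was higher in curly skin. KRT77 stood at 72.0 [69.9 to 74.2] and 113.0 [110.7 to 115.4], and KRT79 at 184.3 [180.8 to 187.8] and 361.3 [357.1 to 365.6]. These levels came from few cells. In the straight library 135 cells held 50% of all KRT1 UMIs, 113 cells 50% of KRT10, 31 cells 50% of KRT2, 77 cells 50% of KRT77 and 45 cells 50% of KRT79. In the curly library the same share was held by 181, 186, 86, 84 and 64 cells.

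All 5 members had their highest level in clusters 5 and 6. KRT1 reached 12110 CPM in the straight and 14024 in the curly cells of cluster 6, and 4971 and 5008 in cluster 5. KRT10 followed with 25824 and 29790 in cluster 6 and 9943 and 13347 in cluster 5. KRT2 was also higher in cluster 6, at 221 and 629, than in cluster 5, at 78.1 and 166. The order 6, 5 and then the low-depth cluster 3 held for KRT1, KRT10 and KRT2 in both libraries, with no overlap between the intervals of these neighbours. KRT77 stood at 296 and 961 in cluster 6 and at 348 and 309 in cluster 5, so that its order was turned between the libraries. Beyond the first places the order was loose, and for KRT1 the intervals of 15 of 20 neighbours in the straight and 14 of 20 in the curly library overlapped.

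KRT79 had another pattern. It stood at 1259 CPM in straight and 3046 in curly cells of cluster 5, against 24.5 and 62.5 in cluster 6. Thus cluster 5 held 78.7% and 82.9% of all KRT79 UMIs of the straight and curly libraries, whereas cluster 6 held 59.2% of the KRT1 UMIs of the straight library. The leading genes of these clusters differed. CST6 (cystatin M/E, an inhibitor of cysteine proteases), the retroviral-like protease gene ASPRV1 and KRTDAP led cluster 5, and FLG, the cornified envelope gene CNFN, LOR and SPINK7 were among those that led cluster 6. Leading genes were taken over both libraries together. LOR was higher in cluster 6 than in cluster 5 in curly cells only (1947 against 1020 CPM). In straight cells it was lower there (8.25 against 110). Across the 21 clusters, KRT79 levels were most like those of CST6 (Pearson r of 0.84 in straight and 0.88 in curly cells, on log2 of the level plus 5), and next came the transcription factor gene GATA6, LOC101113251 and PLA2G2F among others. The r of KRT79 with KRT1 was 0.61 and 0.58. KRT1 was most like KRT10 (0.96 and 0.99), then KRT77 (0.91 and 0.90) and SERPINB10 (0.87 and 0.90). These r values describe 21 clusters that share their 2 libraries.

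**Figure D1:**
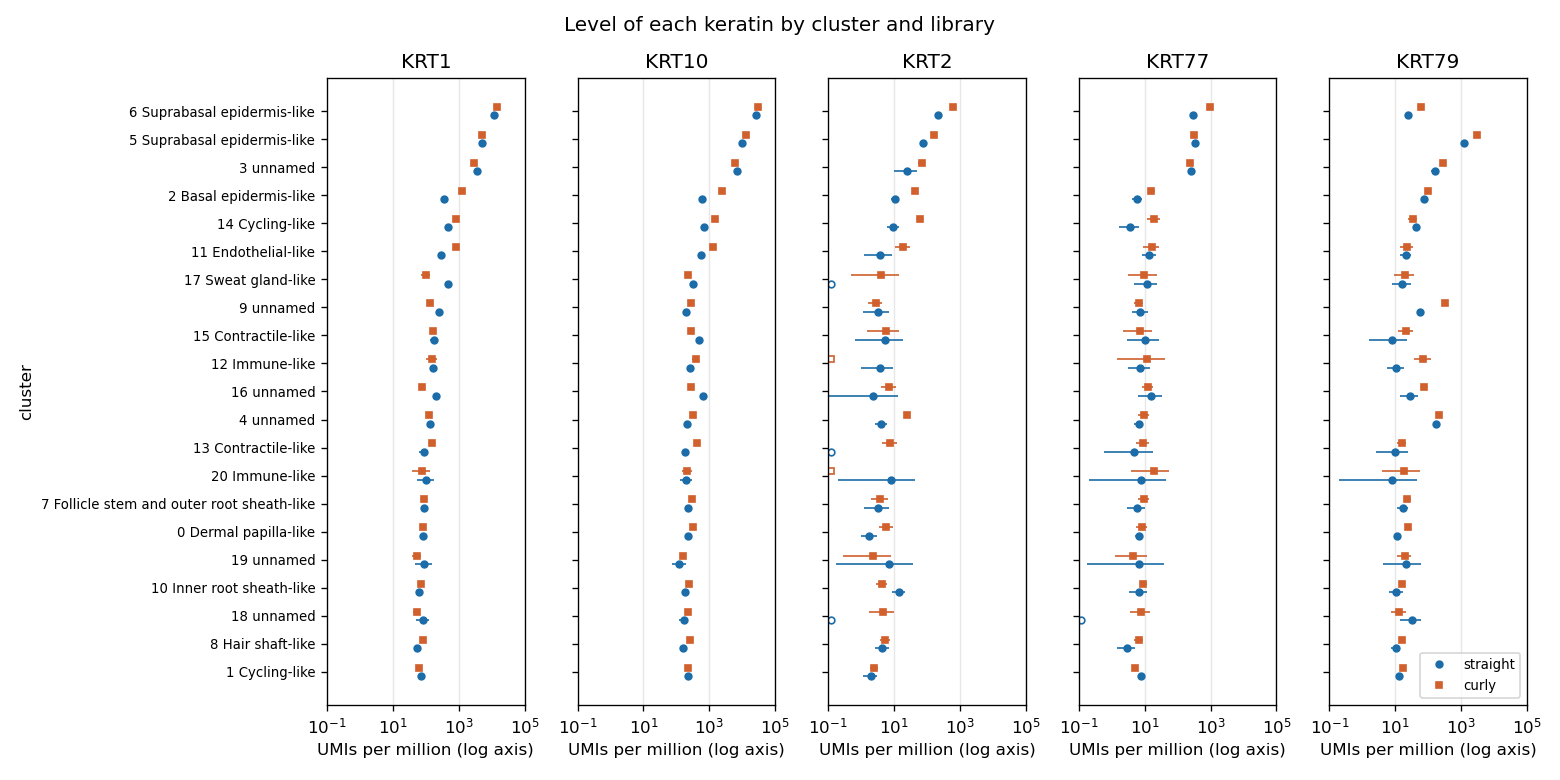
CPM of KRT1, KRT10, KRT2, KRT77 and KRT79 (log axis) in each of the 21 clusters, ordered by KRT1, for the straight (circles) and curly (squares) libraries, with lines for the exact 95% counting interval and open symbols at the left edge for clusters with 0 UMIs. KRT1, KRT10 and KRT2 are highest in cluster 6, and KRT79 in cluster 5, at 1259 and 3046.

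A second site of KRT79 lay in cells that the main clustering left inside unnamed cluster 4. At a finer resolution of 0.8, 52 straight and 19 curly cells of cluster 4 formed a cluster that carried sebaceous markers, led by FGFBP1 and the lipid droplet gene PLIN2. Here KRT79 stood at 1489 CPM [1393 to 1589] in straight and 1826 [1677 to 1985] in curly cells, and 96.2% and 100% of these cells had a KRT79 UMI. KRT1 was at 62.6 and 33.1 in the same cells, and KRT10 at 132 and 159. These KRT1 and KRT10 levels were below those of dermal papilla-like cells, where KRT1 was at 81.0 and 79.9 and KRT10 at 230 and 311. Thus KRT79 was high here without the KRT1 and KRT10 pair. KRT2 stood at 1.65 CPM in these straight cells, from 1 UMI. In the 19 curly cells it stood at 179 [134 to 233], from 54 UMIs, and was found in 47.4% of them. That level was near the 166 of curly cluster 5. Cluster 9, an unnamed cluster led by KRT6A, showed KRT79 at 58.0 in 189 straight cells and 318 in 386 curly cells.

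Dermal, endothelial, immune and contractile clusters gave low counts of all 5 members. In these 6 clusters the median KRT1 level was 133 CPM in straight and 153 in curly cells, and the median KRT2 level 3.74 and 5.67. Endothelial-like cells, which should lack these keratins, showed KRT1 at 288 and 822, and 3 cells held 271 of the 376 straight and 627 of the 709 curly UMIs. Without these 3 cells the level was 84.2 and 101. In droplet data free RNA and mixed droplets give such counts, so the share of cells with a UMI was read after each cell was thinned to 2000 UMIs. Thinning kept 862 of the 927 straight and 952 of the 991 curly suprabasal-like cells (median depth of the class 12353 and 12002 UMIs) and 131 of the 192 straight and 113 of the 166 curly endothelial-like cells (median depth of the class 5306 and 3827). KRT1 was found in 77.1% and 81.4% of suprabasal-like cells against 21.4% and 15.0% of endothelial-like cells, where the unthinned shares were 92.1% and 93.9% against 41.7% and 33.1%. KRT10 was found in 76.0% and 85.7% against 37.4% and 35.4%. For KRT79 the shares were 22.4% and 34.9% against 0.763% and 3.54%. KRT2 was found in 11.9% and 32.1% against 0 of 131 straight cells, which allows a share of up to 2.29%, and 1.77% of curly cells. KRT77 was found in 25.4% and 39.8% against 3.05% of straight cells and 0 of 113 curly cells, which allows up to 2.65%. All 5 members thus stood at least 2 times above the endothelial-like share at this depth.

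Within the suprabasal-like class, most cells with KRT2, KRT77 or KRT79 had KRT1 too. Of cells with a KRT2 UMI, 96.5% in the straight [94.0 to 98.2] and 98.7% in the curly library [97.4 to 99.4] held a KRT1 UMI, where cells without KRT2 held one in 89.5% and 86.5%. KRT1 was found in 98.8% and 98.3% of cells with KRT77 and in 96.3% and 96.1% of cells with KRT79. The shares for KRT79 were only slightly above the unthinned KRT1 share of the whole class given above. With at least 3 UMIs of each gene the shares for KRT79 were 92.3% and 83.7%. Conversely, 39.2% and 64.2% of cells with KRT1 held KRT2. The cells with KRT2 were deeper than those without, at a median of 15789 against 10412 UMIs in straight and 13034 against 10637 in curly cells. Among cells with KRT1, KRT79 was present in 60.7% and 81.5% in cluster 5 but in 9.54% and 18.4% in cluster 6. Over cells thinned to 2000 UMIs, Spearman's rho between KRT1 and KRT10 was 0.80 and 0.83, between KRT1 and KRT2 0.20 and 0.52, and between KRT1 and KRT79 -0.02 and -0.32. Cells of 1 library share their source, so these values are descriptions only.

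Suprabasal-like cells were then split by whether they held more KRT79 or more KRT2 UMIs. In the straight library 278 cells had more KRT79, 216 more KRT2, 20 equal numbers and 413 neither. In the curly library these numbers were 369, 390, 22 and 210. Cells with more KRT79 lay in cluster 5 in 89.2% and 89.4%, and cells with more KRT2 in cluster 6 in 62.5% and 74.4%. Of 5043 genes with at least 100 UMIs in each library, 1.78% were at least 2-fold higher in the KRT79 cells and 1.57% at least 2-fold higher in the KRT2 cells in both libraries. The split used the values of KRT79 and KRT2, and clusters 5 and 6 differ in many genes, so these counts are a description.

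On the KRT79 side stood CST6, at 44541 CPM against 6130 in straight and 121158 against 9357 in curly cells. The kallikrein KLK7, a protease of horny layer shedding, stood at 1206 against 204 and 2042 against 435, and ASPRV1 at 1678 against 223 and 2848 against 676. Of 17 measurable genes of a cornified envelope list, 4 were at least 2-fold higher in the KRT79 cells of both libraries (CDSN, KLK7, ASPRV1 and CRCT1), and none was at least 2-fold higher in the KRT2 cells of both. IVL, ALOX12B and ALOXE3 of this list had too few UMIs for the limit and were at least 2-fold higher in the KRT2 cells of both libraries. LOR and CNFN, among others, went opposite ways in the 2 libraries. Transcription factor genes were found on both sides, with GATA6 at 30.4 against 10.7 and 39.8 against 7.15, PRDM1 at 96.9 against 33.9 and 108 against 16.1, and GATA3 at 46.8 against 146 and 35.9 against 224. On the KRT2 side, the leading gene was LOC114113225, followed by KRT4, a type II keratin known from moist lining epithelia, at 11.1 against 352 and 1.92 against 77.6, and LYPD2 at 20.5 against 389 and 3.85 against 345. In the basal list 0 of 7 measurable genes were past 2-fold in either direction in both libraries.

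The type II members are neighbours in the genome. In the gene order of the RefSeq annotation of another sheep assembly (ARS-UI_Ramb_v3.0), the run of measured genes was KRT78, KRT79, KRT4, KRT3, KRT77, KRT1 and KRT2, with KRT71 and KRT5 further along. KRT10, a type I gene, was not matched in that annotation. Neighbours differed in their clusters. KRT79 and KRT4 stand next to each other, and KRT79 was higher in cluster 5 than in cluster 6, whereas KRT4 stood at 1.95 and 1.57 CPM in cluster 5 against 245 and 67.2 in cluster 6. KRT1 and KRT2, also adjacent, were both higher in cluster 6.

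**Figure D2:**
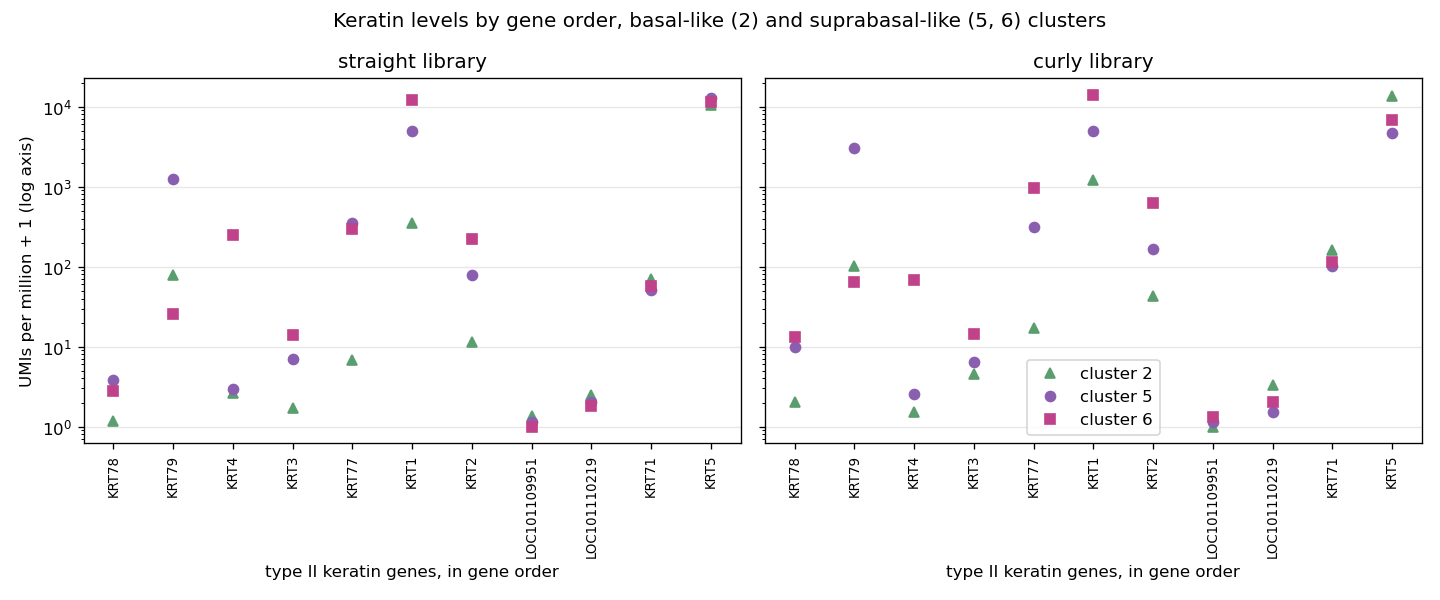
CPM plus 1 (log axis) of type II keratin genes, in their genomic order, in basal epidermis-like cluster 2 (triangles) and suprabasal-like clusters 5 (circles) and 6 (squares), 1 panel per library. KRT79 and KRT4 are on opposite sides, with KRT79 higher in cluster 5 and KRT4 higher in cluster 6.

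Basal-like and suprabasal-like cells (1639 straight and 1515 curly) were next ordered by a score, the share of UMIs in early differentiation and cornified genes less the share in basal genes, with no member in any of these lists. The score was cut into 10 ranges of equal cell number in each library. A range is a stretch of the score and not a cell type. Every member was higher in range 10 than in range 1. In the straight library KRT1 stood at 2517 CPM in range 1, was lower in ranges 2 to 7 (lowest 1171, in range 3) and peaked at 14404 in range 9. In the curly library it stood at 2727 in range 1, was lowest at 897 in range 2 and peaked at 17105 in range 7. KRT10 stood at 1912 in range 1 and peaked at 32344 (range 9) in straight cells, and at 1940 and 32093 (range 8) in curly cells. These peaks stood 5.72 and 6.27 times above range 1 for KRT1, and 16.9 and 16.5 times for KRT10.

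The minor members peaked at or after the pair. KRT2 peaked at 397 in range 10 of the straight and at 774 in range 8 of the curly library, KRT77 at 939 (range 10) and 1297 (range 9), and KRT79 at 1799 (range 10) and 3216 (range 9). In the most differentiated curly cells the members did not fall alike. In range 10, KRT2 was at 12.9% of its peak, KRT1 at 24.1%, KRT10 at 47.9%, KRT77 at 55.6% and KRT79 at 65.9%. In the straight library KRT1 was at 79.8% and KRT10 at 92.5% of the peak there, and the other members were at their peak.

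The makeup of the KRT1 and KRT10 pair changed along the score. In range 1 there were 0.760 KRT10 UMIs per KRT1 UMI in straight cells [0.724 to 0.797] and 0.711 in curly cells [0.676 to 0.748]. In range 10 there were 2.60 [2.57 to 2.64] and 3.73 [3.65 to 3.81]. The ratio was thus lowest in range 1 and highest in range 10 of both libraries. The median over single cells with KRT1 moved likewise, from 0.677 to 3.00 in straight and from 0.584 to 4.99 in curly cells. In straight cells this median stayed at 1 from range 2 to range 7. A high ratio was not particular to the highest ranges. Summed UMIs gave 2.84 and 3.90 in dermal papilla-like and 3.00 and 3.15 in hair shaft-like cells, where both genes were low, but 1.97 and 1.52 in endothelial-like cells. Clusters 5 and 6 differed in this ratio. In ranges 1 to 5 of cluster 6, KRT10 was below KRT1, at 3487 against 3766 CPM in straight and 4187 against 4551 in curly cells. In ranges 6 to 10 it was at 49814 against 21072 and 43413 against 19065. In cluster 5, KRT10 was above KRT1 in ranges 1 to 5 (2518 against 1219 and 5136 against 2028) and in ranges 6 to 10 (12662 against 6345 and 14344 against 5370).

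Range 1 was not made of cluster 2 alone. Cluster 6 gave most of its cells, and 52.3% of the straight and 40.3% of the curly cells of cluster 6 lay in ranges 1 to 5. These cells carried the basal keratin KRT14 at 29972 and 32878 CPM and KRT1 at 3766 and 4551. The cluster 6 cells of ranges 6 to 10 carried KRT14 at 3901 and 1339 and KRT1 at 21072 and 19065. Thus cluster 6 spanned cells rich in basal keratins and cells rich in KRT1. In cluster 5 the cells of ranges 1 to 5 were 29.2% and 12.9%, with KRT5 at 28436 and 23101 and KRT79 at 205 and 547, against 1645 and 3350 in ranges 6 to 10.

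Cell cycle genes were low where KRT1 was high, in a pool that took in a cluster named from such genes. Among basal-like cells, suprabasal-like cells and cycling cluster 14, a list of 6 cell cycle genes stood at 476 CPM in straight and 330 in curly cells with KRT1 below 1000 CPM but above 0. With KRT1 at 15000 or more it stood at 52.3 and 54.6. The share of cells with a UMI of TOP2A, the topoisomerase of dividing cells, was 19.8% [16.8 to 23.1] and 14.1% [11.0 to 17.7] in the former and 2.82% [1.04 to 6.03] and 1.38% [0.377 to 3.49] in the latter, at median depths of 10560 and 10222 against 10170 and 9339 UMIs. Cluster 14 made up 17.9% and 10.5% of the former cells and 0% of the latter. Cells without a KRT1 UMI were shallower (median 6928.5 and 6827 UMIs). In them the list stood at 405 and 320 CPM and the TOP2A share at 14.1% and 10.5%, so the fall with KRT1 was not steady.

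Between wool types, KRT2 was the member with the largest ratio over all cells. Its level was 2.28-fold higher in the curly library, a log2 ratio of 1.19 [1.11 to 1.26]. KRT79 followed at 0.97 [0.94 to 1.004] and KRT77 at 0.65 [0.60 to 0.70], while KRT10 was at 0.14 and KRT1 at -0.01. Thus 1 of 5 members was past 2-fold, where 10.1% of 13196 genes with at least 100 UMIs were past 2-fold in either direction and 3.24% were higher. The median log2 ratio of all these genes was -0.18. The share of suprabasal-like cells was similar, at 14.4% of straight and 13.1% of curly cells. With the cluster makeup of the curly library, the straight levels of each cluster would give KRT2 at 28.4 CPM, and the curly levels with the straight makeup 85.2.

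In suprabasal-like cells KRT2 stood at 139 CPM in straight and 368 in curly cells (log2 ratio 1.40 [1.32 to 1.49]), and KRT79 at 732 and 1745 (1.25 [1.22 to 1.29]). KRT77 stood at 326 and 593 (0.87), KRT10 at 16723 and 20520 (0.30) and KRT1 at 8019 and 8941 (0.16). Thus 2 of 5 members were past 2-fold, against 8.66% of 8815 genes in either direction and 3.65% in the direction of curly. In the smaller suprabasal-like class of resolution 0.8 the ratios of KRT2 (-0.55), KRT1 (-1.07), KRT10 (-0.64) and KRT77 (-0.15) were below 0, and with ratios taken less the median of all genes KRT77 (1.06) was past 2-fold as well. In cluster 5, 2 of 5 were past 2-fold, KRT2 and KRT79, both higher in curly cells (8.82% of genes past 2-fold, 3.12% higher), and in cluster 6, 3 of 5, with KRT77 in addition (9.64% of genes past 2-fold, 4.94% higher). KRT79 in cluster 6, from 122 straight and 369 curly UMIs, was no longer past 2-fold with the mean of per-cell levels (0.57). KRT77 differed between these clusters, with a log2 ratio of -0.17 [-0.25 to -0.09] in cluster 5 and 1.70 [1.62 to 1.78] in cluster 6. In basal-like cluster 2, KRT1 stood at 355 and 1210 (1.77), KRT10 at 608 and 2449 (2.01) and KRT2 at 10.6 and 41.9 (1.98), so that 3 of 4 members with at least 100 UMIs were past 2-fold, all higher in curly cells, against 5.84% of genes in either direction and 2.31% higher. KRT79 was at 76.8 and 99.7 there (0.38).

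**Figure D3:**
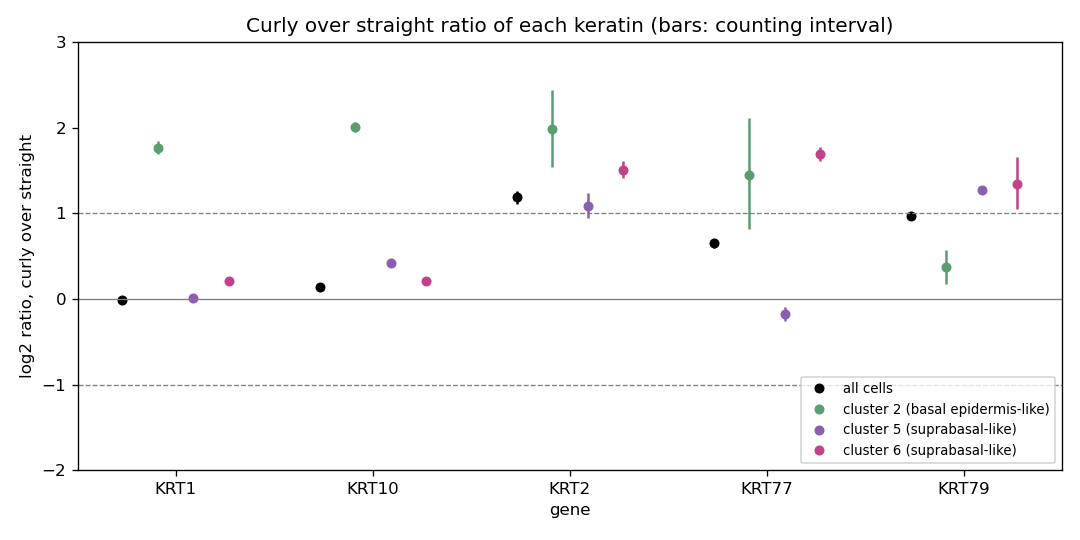
Log2 ratio of the level in curly over straight cells for each keratin over all cells and in clusters 2, 5 and 6, with bars for the exact 95% counting interval and dashed lines at 2-fold. KRT2 lies above 1 in all of these groups, KRT1 and KRT10 lie above 1 in cluster 2 only, and KRT77 lies below 0 in cluster 5 and at 1.70 in cluster 6.

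The suprabasal-like cells of the 2 libraries also differed in cornified and basal genes. Over all 8815 genes with at least 100 UMIs in these cells, 8.66% were past 2-fold in either direction and 3.65% were higher in curly cells. Of 20 measured cornified genes, 12 were at least 2-fold higher in curly suprabasal-like cells and 0 lower, with a median log2 ratio of 1.37 against -0.20 for all genes. LOR stood at 66.6 CPM in straight and 1424 in curly cells, and FLG at 90.2 and 388. Of 8 basal genes, 5 were at least 2-fold lower (KRT5, KRT15, ITGA6, DST and POSTN) and 0 higher, with a median of -1.09. Of 12 early differentiation genes, 2 were higher (KRTDAP and SPINK5), and of 14 regulator genes 0 were past 2-fold. Of 10 measured duct and sebaceous genes, CST6 was higher, at 18690 and 61858, and 2 were lower (S100A8 at 62.2 and 14.4, S100A9 at 86.5 and 17.7), with a median of -0.19. The cornified list was thus higher in the library in which KRT2, KRT77 and KRT79 were higher, and the basal list was lower.

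Cells were therefore compared at the same score, with limits common to both libraries, a choice made after the data had been seen. The 4 highest of 10 such ranges held 30.0% of the straight and 50.8% of the curly basal-like and suprabasal-like cells. Cluster makeup still differed within ranges, with cluster 2 at 9.09% of straight and 23.0% of curly cells in range 7. At matched score KRT2 was still mostly higher in curly cells. It was past 2-fold higher in curly cells in 7 of 10 ranges, as in range 8, with 117 CPM in straight and 527 in curly cells (log2 ratio 2.17 [1.96 to 2.39]). In range 10 it was turned, with 522 in straight and 215 in curly cells (-1.28 [-1.44 to -1.12]). The ratio of KRT79 was smaller at matched score, with 1424 and 2481 in range 9 (0.80) and 2226 and 2567 in range 10 (0.21), and was past 2-fold higher in 1 range and lower in 1. KRT77 had a log2 ratio of -0.43, -0.73, 0.41 and -0.43 in ranges 7 to 10, so that curly cells were higher in 1 of these 4 ranges. KRT1 and KRT10 were past 2-fold in 0 of 10 ranges. For KRT1 the ratio lay between -0.72 and 0.85, and for KRT10 between -0.60 and 0.95.

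**Figure D4:**
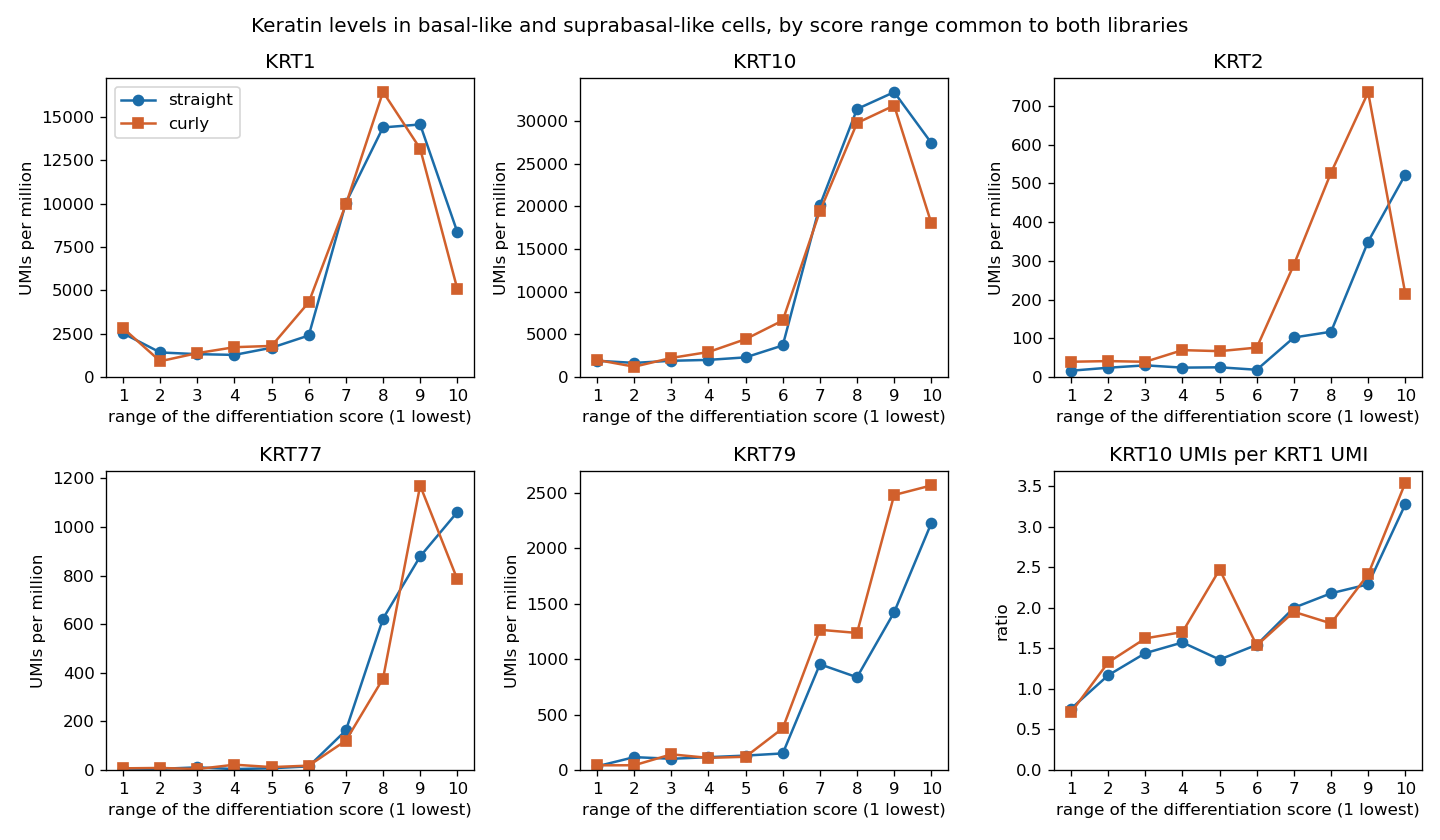
CPM of each keratin, and KRT10 UMIs per KRT1 UMI, in basal-like and suprabasal-like cells of the straight (circles) and curly (squares) libraries, in 10 ranges of the differentiation score with limits common to both libraries. KRT2 is higher in curly cells up to range 9 (735 against 350), though its interval covers 0 in range 3 (log2 ratio 0.38 [-0.22 to 0.98]). In range 10 KRT2 is lower in curly cells (215 against 522). KRT1 and KRT10 differ by less than 2-fold between the libraries in every range.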

How the data were processed

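Single-cell RNA-seq was made from 1 pool of straight wool and 1 pool of curly wool lambskin. The authors aligned the reads to the Oar_rambouillet_v1.0 genome with Cell Ranger and filtered the cells. The table used here holds fewer cells than the study states. The submitters' processing notes give Cell Ranger 3.0.2, and the methods of the study name another version. The table deposited by the authors holds natural log values, ln(1 + UMIs × 10000 / UMIs of the cell), read from the values since the normalization is not stated. UMIs were calculated back, and 100% of values were whole within 0.01 (largest deviation 0.0067).

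Libraries were integrated in Seurat 5.3.0 (R 4.3.3) without KRT1, KRT2 and KRT79 and clustered at resolution 0.3, the lowest in steps of 0.1 with at least 19 clusters. A class needed a mean log2 marker ratio of at least 1 (5 CPM added) and 3 markers detected in at least 10% of cells, and a cluster whose median depth was under that of its library divided by 3 stayed unnamed, limits set after the data had been seen. The low-depth cluster 3 had a median of 673.5 straight and 768 curly UMIs. Intervals were exact Poisson (levels), Clopper-Pearson (shares) and binomial split (ratios), and ratios were tested on simulated data. Doublet scores came from Scrublet in scanpy 1.11.5, whose threshold called 0.499% of cells, so no cell was removed and leaving out the highest 6% (842 cells) was an alternative. Figures and intervals came from matplotlib 3.10.9 and SciPy 1.17.1 (Python 3.11.15).

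The members, gene lists and markers were chosen with earlier results of these data known. Named genes were the members, up to 6 genes per list, the 5 genes most like each member across clusters and the 10 leading genes each way of the KRT79 and KRT2 split. KRT14 and KRT15 are LOC101118459 and LOC101117682, matched by gene ID in a RefSeq table of ARS-UI_Ramb_v3.0, which held 2582 of the 3912 LOC genes of the file. No coordinates were taken from it. Alternatives changed the variable genes, resolution, integration, cells, scaling, depth, ranges and UMI minimum. 1 gene that these rules select is not reported here. Protein sequences were not analysed here.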

Additional observations from a re-analysis of the deposited data

Results flagged for a closer look

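Clusters in which a member went opposite ways between curly and straight cells, with counting intervals on opposite sides of 0, were looked for among those with at least 100 UMIs. The difference between clusters was not tested, since each wool type has 1 library. KRT1 had a log2 ratio of curly over straight of -2.22 [-2.68 to -1.78] in sweat gland-like cluster 17 and 1.77 in basal-like cluster 2. In cluster 17, 3 cells held 234 of the 280 straight UMIs, and without the 3 cells of highest count in each library the level was 77.9 in straight and 83.9 in curly cells. KRT10 had a ratio of -1.21 [-1.42 to -0.996] in unnamed cluster 16, from 40 straight and 194 curly cells, and 2.01 in cluster 2. KRT77 had a ratio of -0.65 [-1.10 to -0.19] in cycling-like cluster 1, from 76 straight and 96 curly UMIs, and 1.70 in cluster 6.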

How the results depend on the processing

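No paired analysis was possible because each wool type has 1 library with no replicate number. The direction of KRT1 over all cells was not stable, with a log2 ratio of curly over straight of 0.17 when ratios were taken less the median of all genes and 0.21 from the mean of per-cell levels, against -0.01. The former scaling also put 2 members past 2-fold in place of 1 (KRT79 at 1.16) and KRT77 in cluster 5 at 0.085. The mean of per-cell levels put KRT79 in cluster 6 at 0.57, against 1.35. At resolution 0.8 the suprabasal-like class kept 248 of the 962 cells of cluster 5 and 236 of the 956 of cluster 6, and its ratios were -1.07 for KRT1, -0.64 for KRT10, -0.55 for KRT2 and -0.15 for KRT77. In the 5 other clusterings tried the ratio in this class lay between 1.33 and 1.65 for KRT2 and between 1.16 and 1.48 for KRT79. KRT79 was higher in sebaceous-like than in suprabasal-like straight cells (4 of 5 members highest in the latter) with cells of few genes left out, without the highest doublet scores and with all 5 members left out of the variable genes, the last chosen after the data had been seen. With at least 3 UMIs the share of curly cells with KRT2 that held KRT1 was 96.3%. Thinned to 4000 UMIs, 4 of 5 members stood at least 2 times above the endothelial-like share. Without cells whose barcode is in both libraries, also chosen after the data had been seen, the ratio over all cells was 1.19 for KRT2 and 0.99 for KRT79. Of the other single values under an alternative, 103 stayed within the counting interval of the main value and 126 moved outside it. Without a UMI minimum, 21.0% of genes were past 2-fold over all cells. The comparison of protein sequences was not run. Depth limits KRT77 in cluster 2 (32 and 63 UMIs) and the members in dermal, endothelial, immune and contractile cells.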
